A study of Mus musculus with 2 samples.

Results

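Saliva and tears carry mucins, enzymes, proline-rich proteins and small carrier proteins that acinar cells of the salivary and lacrimal glands make in large amounts and release by exocytosis. Serous cells secrete watery enzyme-rich fluid, mucous cells secrete mucins, and duct cells modify the fluid and add proteases such as kallikrein. At birth these glands are still maturing, and many of their products are made in larger amounts later in life. The 10 genes described here, Car6, Prol1, Dmbt1, Prpmp5, Klk1, Pip, Dcpp1, Dcpp3, Mucl2 and Scgb2b27, encode such products. They were chosen by name, partly from their signals in the same arrays, and stand for 10 of 18193 genes with a named probe set. All 15 probe sets with a single platform symbol among these names were taken. Because the choice drew on the measured difference between the 2 heads, that difference is given as a description.

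Signals came from the whole heads of newborn mice, 1 Affymetrix array per genotype. The MatDp(dist2) head carried a duplication of distal Chr 2 (beyond the T11H breakpoint) with maternal copies only, and with it paternal copies only of distal Chr 9. For PatDp(dist2) the origins were reversed, with paternal distal Chr 2 and maternal distal Chr 9. Both came from mice with the T(2:9)11H translocation, so neither had the usual copy from each parent for these parts, and no head without a duplication is analysed here. Of the 10 genes, 0 lie on Chr 2 or Chr 9 in the RefSeq table: Klk1, Dmbt1 and Scgb2b27 are on Chr 7, Pip and Prpmp5 on Chr 6, Dcpp1 and Dcpp3 on Chr 17, and Car6, Prol1 and Mucl2 on Chr 4, Chr 5 and Chr 15. How many animals gave each RNA sample, and their sex, is not stated in the sources used here. A whole head pools every tissue, so fewer gland cells and less RNA per gland cell cannot be told apart.

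Values are deposited MAS5 signals, that is, 1 linear intensity per probe set. A signal under 187, midway between the median signals of the 2 arrays, was treated as below the floor. Where 1 head lay below it, the difference is a bound ("at least N-fold"), with the brighter signal set against the floor. Signals had a median of 201 for MatDp(dist2) and 173 for PatDp(dist2). With 1 array per genotype there is no spread between replicates, so no difference below was tested and none has a p-value. Transcripts of the Y-linked genes Eif2s3y (1169 for MatDp(dist2) and 1365 for PatDp(dist2)) and Kdm5d (472 and 489 in the same order) were above the floor in both heads. The brightest probe set for Xist, the RNA of the inactive X, had 217 in MatDp(dist2) and 202 in PatDp(dist2). The other Xist probe sets were far below the floor, with 11.9 and 1.9 in MatDp(dist2) and 4.4 and 5.6 in PatDp(dist2). Eif2s3y and Kdm5d also had other probe sets below the floor in both heads. These sex-linked genes were added after the values were seen.

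The members were mostly brighter in PatDp(dist2). On 1 probe set per gene, the brightest, 1 of the 10 (Dcpp1) was at least 2-fold higher in MatDp(dist2), 8 were at least 2-fold higher in PatDp(dist2), and Dcpp3 lay between. Among all 12483 measured genes, 4.43% were at least 2-fold higher in MatDp(dist2) and 3.47% in PatDp(dist2). Of the 15 probe sets of the members, 14 were measured, 2 of them brighter in MatDp(dist2), with 12 in PatDp(dist2), and 1 was below the floor in both heads. Of these calls over all genes, 56.1% were higher in MatDp(dist2), a share that became 31.1% with each array centred on its median log2 signal. The median log2 ratio of MatDp(dist2) over PatDp(dist2) was -2.69 over the 10 members and 0.02 over all measured genes. Nothing is read from these figures, since the members were picked on this contrast.

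Car6 encodes the carbonic anhydrase that is secreted into saliva, where it speeds the conversion between carbon dioxide and bicarbonate. Its probe set, 1421001_a_at, had a signal of 594 for MatDp(dist2) and 6509 for PatDp(dist2). Both lay above the floor, and the PatDp(dist2) head was 11.0-fold higher.

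Prol1, also named Muc10, encodes a mucin-type protein of the submandibular and lacrimal glands. Probe set 1449587_a_at had 1725 in MatDp(dist2) and 14929.5 in PatDp(dist2). The second Prol1 probe set, 1451637_a_at, had 563 in MatDp(dist2) and 4593 in PatDp(dist2). The folds, 8.65 and 8.16 in favour of the PatDp(dist2) head, lay close together although the brightness of the probe sets differed.

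Pip encodes prolactin-induced protein, a small secreted protein of saliva, tears and other exocrine fluids. Probe set 1449212_at had 1660.1 in MatDp(dist2) and 9439 in PatDp(dist2), 5.69-fold higher in PatDp(dist2). The other Pip probe set, 1427614_at, was under the floor in each head, with 47.2 in MatDp(dist2) and 120.4 in PatDp(dist2). It gives no fold.

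Dmbt1 encodes a large scavenger-receptor glycoprotein that binds bacteria in saliva and on mucosal surfaces. Its probe set had 384 in MatDp(dist2) and 2745 in PatDp(dist2), a 7.14-fold difference with both signals above the floor.

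Klk1 encodes tissue kallikrein, the serine protease of salivary ducts that releases kinins. It is a member of a large family of close copies on Chr 7, and the suffix _x_at marks a probe set with probes that may also bind other transcripts. Probe set 1415837_at, which has no such suffix, had 308 in MatDp(dist2) and 1241 in PatDp(dist2). Signals of 1448107_x_at were 291 in MatDp(dist2) and 1285.5 in PatDp(dist2). The brightest, 1455977_x_at, had 466 in MatDp(dist2) and 3025 in PatDp(dist2). These 3 probe sets were 4.02-fold, 4.41-fold and 6.49-fold higher in PatDp(dist2). The last, 1460050_x_at, differed from them, with 405 in MatDp(dist2) and 369 in PatDp(dist2). Its log2 ratio was 0.13, and it changed sign to -0.08 with each array centred on its median.

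Mucl2, Scgb2b27 and Prpmp5 were below the floor in MatDp(dist2) and well above it in PatDp(dist2). Mucl2, a mucin-like gene whose older name is Spt1, had 34.9 in MatDp(dist2) and 1482 in PatDp(dist2), at least 7.92-fold higher. Scgb2b27, a secretoglobin of the androgen-binding protein family, had 153 in MatDp(dist2) and 1207 in PatDp(dist2), at least 6.45-fold higher. Prpmp5 encodes a salivary proline-rich protein, and its signals were 184 in MatDp(dist2) and 1016 in PatDp(dist2), a bound of 5.43-fold. The Prpmp5 signal in MatDp(dist2) lay just under the floor, and that of Mucl2 far under it. The bounds therefore do not rank these 3 genes.

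**Figure D1:**
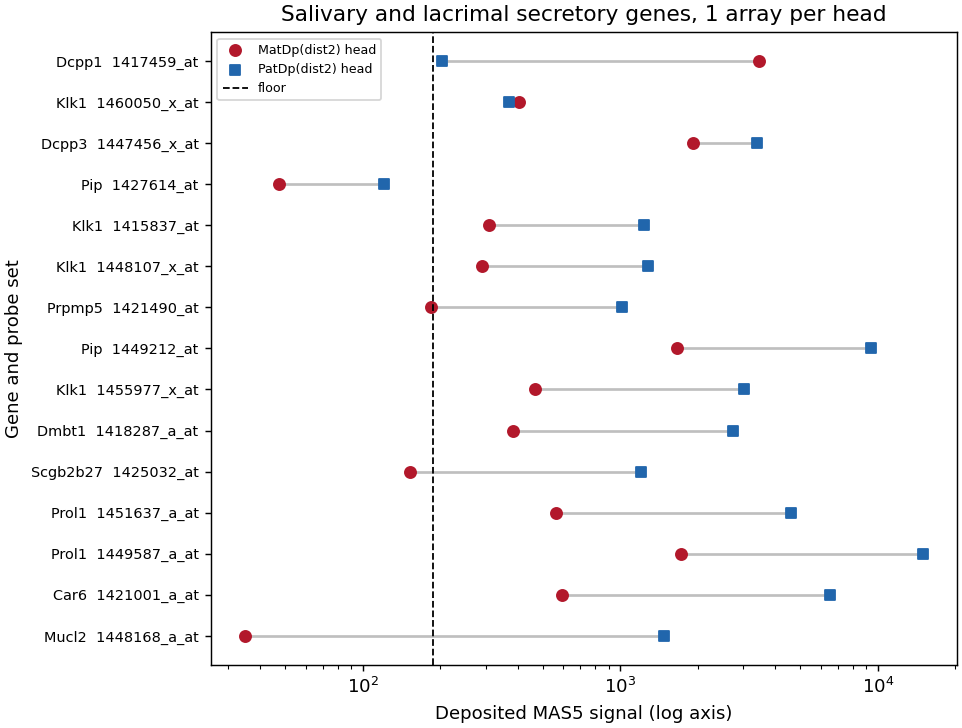
Deposited MAS5 signal (log axis) of each of the 15 probe sets of the 10 genes, circles for the MatDp(dist2) head and squares for the PatDp(dist2) head, with the floor of 187 dashed. The square lies right of the circle on most lines, Dcpp1 has the opposite order (3442.5 in MatDp(dist2), 202.8 in PatDp(dist2)), and Klk1 1460050_x_at has both symbols nearly together.

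Dcpp1 and Dcpp3 belong to the demilune cell and parotid protein genes, close paralogs in a cluster on Chr 17 that encode small secreted salivary proteins. The probe sets annotated to each of them alone gave opposite directions. Dcpp1, on probe set 1417459_at, had 3442.5 in MatDp(dist2) and 202.8 in PatDp(dist2), 17.0-fold higher in MatDp(dist2), with the lower signal close to the floor. Its log2 ratio was 4.09. Dcpp3, on 1447456_x_at, had 1919.7 in MatDp(dist2) and 3389.5 in PatDp(dist2), 1.77-fold higher in PatDp(dist2). A further probe set, 1459725_s_at, is annotated to Dcpp1, Dcpp2 and Dcpp3 together and is not counted among the members. It had 15027.5 in MatDp(dist2) and 20090.1 in PatDp(dist2), 1.34-fold higher in PatDp(dist2). The large Dcpp1 difference was thus found on 1 probe set, and the 2 probe sets that may read the other paralogs did not share it. Which paralog each probe set detects was not tested.

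The promoter windows of Dcpp1 and Dcpp3 are shown because the probe sets annotated to each alone gave opposite directions, under 2-fold for Dcpp3. The upstream sequences of the paralogs are nearly the same. Each window is from RefSeq on GRCm38.p6, plus strand, 250 bases before to 50 after the start that the table gives, and capitals mark bases that differ in an alignment of the pair. The Dcpp1 window is chr17:23880626-23880925 and the Dcpp3 window is chr17:23917208-23917507.
Dcpp1: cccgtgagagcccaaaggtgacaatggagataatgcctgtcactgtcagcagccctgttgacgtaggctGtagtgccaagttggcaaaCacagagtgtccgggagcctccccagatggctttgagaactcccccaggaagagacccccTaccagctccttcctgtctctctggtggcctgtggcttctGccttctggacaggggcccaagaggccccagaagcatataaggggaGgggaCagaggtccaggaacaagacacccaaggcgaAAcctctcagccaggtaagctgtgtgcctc
Dcpp3: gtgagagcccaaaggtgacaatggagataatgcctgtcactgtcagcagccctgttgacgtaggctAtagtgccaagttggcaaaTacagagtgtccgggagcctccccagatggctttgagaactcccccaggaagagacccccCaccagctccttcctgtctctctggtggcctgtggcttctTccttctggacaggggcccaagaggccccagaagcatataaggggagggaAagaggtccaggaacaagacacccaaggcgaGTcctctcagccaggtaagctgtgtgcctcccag
Of 296 aligned bases, 289 were identical (97.6%), 7 were substituted and 1 lay beside a gap. Dcpp2, the paralog between them, had 286 of 295 aligned bases identical with Dcpp1 (96.9%) and 291 of 298 with Dcpp3 (97.7%). The substitutions are spread over the windows, and both hold the letters TATAA upstream of the start.

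Windows of other members brighter in PatDp(dist2) are shown for the letters near their starts. The windows, from RefSeq on GRCm38.p6, run from 80 bases before to 20 after the start, read 5′ to 3′ on the gene's own strand, with TATAA, the core of a TATA box, in capitals. In Prpmp5 the letters are found on both strands, and the 2 matches overlap as TTATAA. They show 2 members with the letters and 2 without. The regions are chr6:41847469-41847568 (plus) for Pip, chr6:132314724-132314823 (minus) for Prpmp5, chr4:150201116-150201215 (minus) for Car6 and chr5:88317232-88317331 (plus) for Prol1.
Pip: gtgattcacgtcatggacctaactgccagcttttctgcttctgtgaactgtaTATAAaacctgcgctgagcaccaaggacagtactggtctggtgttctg
Prpmp5: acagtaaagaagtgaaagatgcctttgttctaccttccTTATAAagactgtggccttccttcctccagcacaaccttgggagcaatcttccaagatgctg
Car6: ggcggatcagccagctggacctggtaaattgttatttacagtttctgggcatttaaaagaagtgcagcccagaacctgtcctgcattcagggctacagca
Prol1: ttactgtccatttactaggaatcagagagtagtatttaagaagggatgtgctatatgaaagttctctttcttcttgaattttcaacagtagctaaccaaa
Of the 10 genes, 9 had a window of 300 bases in the table. TATAA, searched on both strands, was in 5 of these 9, namely Prpmp5, Pip, Dcpp1, Dcpp3 and Scgb2b27, against 24.9% of all 32851 windows. The E-box CATATG was in 0 of the 9, against 3.91% of all windows. The E-box CAGCTG was in 1, Car6, against 16.3%. A match describes letters only, and the Dcpp windows are near copies of each other.

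**Figure D2:**
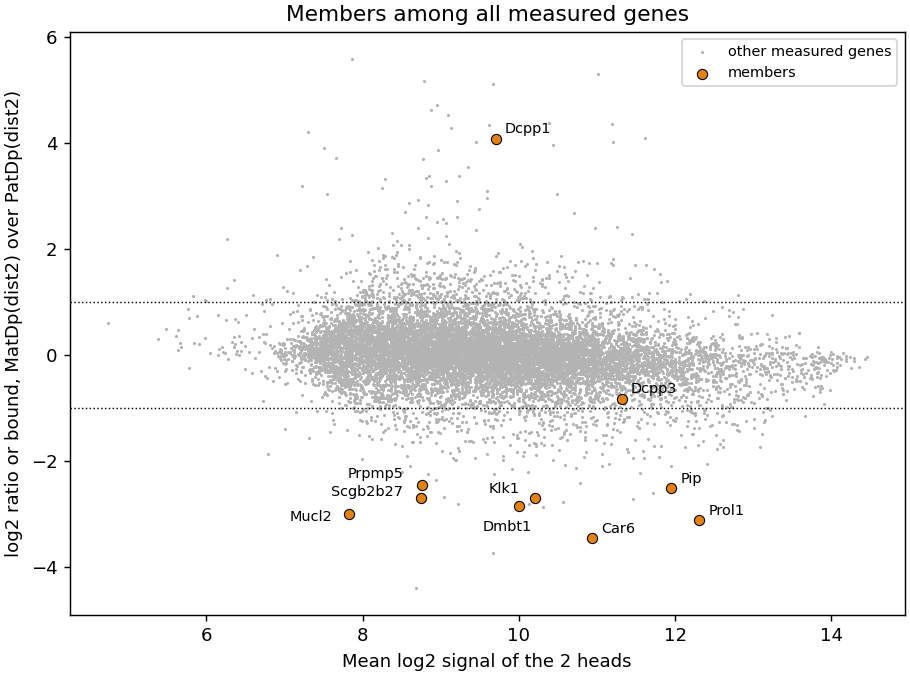
Log2 ratio or bound of MatDp(dist2) over PatDp(dist2) against the mean log2 signal of the 2 heads, 1 point per measured gene, with the 10 members filled and 2-fold differences dotted. Dcpp1 lies at 4.09, Dcpp3 at -0.82, and the other members between -3.45 and -2.44 at both low and high signals.

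Other products of salivary and lacrimal glands mostly took the direction of the majority of members. Of 44 listed genes 31 were on the arrays and 23 were measured, and of these 3 were brighter in MatDp(dist2), 1 at least 2-fold, and 20 in PatDp(dist2), 8 at least 2-fold. Their median log2 ratio was -0.78, against 0.02 over all measured genes. This list, like the others below, was chosen with earlier results of these data known, so its figures are descriptions. Lipf, a lingual and gastric lipase, had 211 in MatDp(dist2) and 996 in PatDp(dist2), 4.72-fold higher in PatDp(dist2). Bpifa2, the parotid secretory protein, is on Chr 2, and had 4782 in MatDp(dist2) and 15806 in PatDp(dist2), 3.31-fold higher there. The list holds other Chr 2 genes too, among them Lcn11 and Wfdc12, 2.66-fold and 2.64-fold higher in PatDp(dist2). Where along Chr 2 these genes lie was not examined. Wfdc18, a small secreted protein with a WAP domain, had 2848 in MatDp(dist2) and 7944 in PatDp(dist2). Muc5b, a gel-forming mucin (360 in MatDp(dist2), with 847 in PatDp(dist2)), and Lpo, the peroxidase of saliva and tears (716.5 and 1594 in the same order), were 2.35-fold and 2.22-fold higher in PatDp(dist2). Slpi, likewise on Chr 2, is a protease inhibitor of saliva that skin and mucosa also make. It went the other way, with 1625 in MatDp(dist2) and 214 in PatDp(dist2), 7.58-fold higher in MatDp(dist2). Amy1, the salivary amylase, was near the floor and slightly brighter in MatDp(dist2), with 221 in MatDp(dist2) and 188 in PatDp(dist2). Slurp1 was also brighter in MatDp(dist2), at 291, and below the floor in PatDp(dist2), at 72.3, a bound of 1.56-fold.

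Genes of fluid secretion and of the acinar program differed by smaller folds. Of 14 measured genes of fluid secretion, 1 was at least 2-fold higher in MatDp(dist2), with 4 in PatDp(dist2), and the median log2 ratio was -0.39. Without probe sets ending in _x_at or _s_at, 2 were at least 2-fold higher in PatDp(dist2). Ano1, the calcium-gated chloride channel of acinar cells, had 731 in MatDp(dist2) and 1997 in PatDp(dist2), 2.73-fold higher in PatDp(dist2), while its other probe set was 1.51-fold higher there. Kcnn4, a calcium-gated potassium channel, had 240.4 for MatDp(dist2) and 616 for PatDp(dist2), and Itpr2, an intracellular calcium release channel, had 210.4 in MatDp(dist2) and 457 in PatDp(dist2). Aqp3, a water channel of skin and basal epithelium, went the other way with 774 in MatDp(dist2) and 276 in PatDp(dist2). Aqp5, the water channel of acinar cells, was below the floor in MatDp(dist2), at 156, and had 303 in PatDp(dist2), a bound of 1.62-fold.

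Among 26 measured regulators and secretory machinery genes, 1 was at least 2-fold higher in MatDp(dist2) and 3 in PatDp(dist2). Bhlha15, also called Mist1, a transcription factor of mature exocrine acini, had 241 in MatDp(dist2) and 567 in PatDp(dist2). Tfcp2l1, a factor of duct cells, had 381.5 in MatDp(dist2) and 954 in PatDp(dist2). Agr2, a disulfide isomerase of mucin-making cells, had 183 in MatDp(dist2) and 511.5 in PatDp(dist2), a bound of 2.73-fold, and its other probe set gave a bound of 1.19-fold. Syt7, a calcium sensor for exocytosis that neurons also use, had 1129 in MatDp(dist2) and 516 in PatDp(dist2), but its other measured probe sets were under 2-fold. With median centring Syt7 itself was under 2-fold, and the list had 0 genes at least 2-fold higher in MatDp(dist2) and 5 in PatDp(dist2). The median log2 ratio of this list was -0.18 in the deposited scaling.

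Genes of gland and duct epithelium differed by smaller folds. Of 22 measured genes for epithelial keratins, junctions and ducts, 1, the trafficking gene Rab25, was at least 2-fold higher in MatDp(dist2) (559 for MatDp(dist2) and 267 for PatDp(dist2)), and 0 in PatDp(dist2). Rab25 was under 2-fold with each of the 3 other scalings. The median log2 ratio was 0.03, and it was negative with those scalings, at -0.18 with each array centred on its median, where all measured genes had a median of -0.19. Krt18, a keratin of simple epithelium, had 1007 in MatDp(dist2) and 1755 in PatDp(dist2), 1.74-fold higher in PatDp(dist2). Its partner Krt8 was 1.38-fold higher there. The junction proteins Cldn4 and Cldn10 differed by a bound of 1.52-fold, higher in MatDp(dist2), and by 1.51-fold, higher in PatDp(dist2). All 10 of a shorter set of gland epithelium markers, which includes Aqp5, Kcnn4 and Bhlha15, were measured, with summed signals of 9559 for MatDp(dist2) and 12768 for PatDp(dist2). In the deposited scaling all 10 were brighter in PatDp(dist2), 2 of them at least 2-fold, and Aqp5 alone was below the floor in 1 head. Cdh1, an adhesion protein of epithelium, had a log2 ratio of only -0.01, which was 0.07 after quantile normalization and 0.08 after loess. In the longer list of 22 genes, 11 were brighter in each head. Of 6 markers of acinar products 5 were on named probe sets and measured, with summed signals of 6250.4 for MatDp(dist2) and 18767 for PatDp(dist2). Bpifa2, on Chr 2, gave 4782 and 15806 of these sums. By gene, 4 of the 5 were brighter in PatDp(dist2), and Amy1 was brighter in MatDp(dist2). Of 7 nasal and airway markers 4 (Bpifb1, Obp1a, Lcn3 and Lcn4) were below the floor in both heads, and the 7 summed to 4423 in MatDp(dist2) and 8827.5 in PatDp(dist2). Bpifa1, also on Chr 2, gave 3521 and 5532 of these sums. Of 6 myoepithelial markers 5 were measured, 3 brighter in MatDp(dist2) and 2 in PatDp(dist2). The 6 summed to 16249.8 in MatDp(dist2) and 15931 in PatDp(dist2). The part of these marker signals in the members' differences was not tested.

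Of 10 measured genes of myoepithelium, the contractile cells around acini, 0 passed 2-fold in either direction in the deposited scaling. Tpm2, a tropomyosin also made in muscle, had 6996.5 in MatDp(dist2) and 12316 in PatDp(dist2), 1.76-fold higher in PatDp(dist2), and passed 2-fold with median centring (log2 ratio -1.03). Krt5 and Krt14, keratins of basal cells, were 1.58-fold and 1.56-fold higher in MatDp(dist2), while another Krt14 probe set, 1840 in MatDp(dist2) and 832 in PatDp(dist2), was 2.21-fold higher in MatDp(dist2). Lgr6, a receptor of epithelial progenitors, was 1.47-fold higher in PatDp(dist2). Of 38 measured genes of gland development, 19 were brighter in each head, and with median centring 10 of 37 were brighter in MatDp(dist2) and 27 in PatDp(dist2). Over all measured genes in the deposited scaling, 6485 were brighter in MatDp(dist2) and 5997 in PatDp(dist2). Median centring gave a median log2 ratio of -0.24 for the development list and -0.19 for all measured genes. Lef1, a Wnt effector (at least 2.35-fold, 440 in MatDp(dist2), with 177 in PatDp(dist2)), and Sox2, a progenitor factor (2.08-fold, 1865 and 899 in the same order), were higher in MatDp(dist2). With median centring Sox2 was no longer past 2-fold, at a log2 ratio of 0.84. Pax6, a regulator of eye and lacrimal gland, was at least 1.99-fold higher there, and Six4 was 1.74-fold higher in PatDp(dist2).

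**Figure D3:**
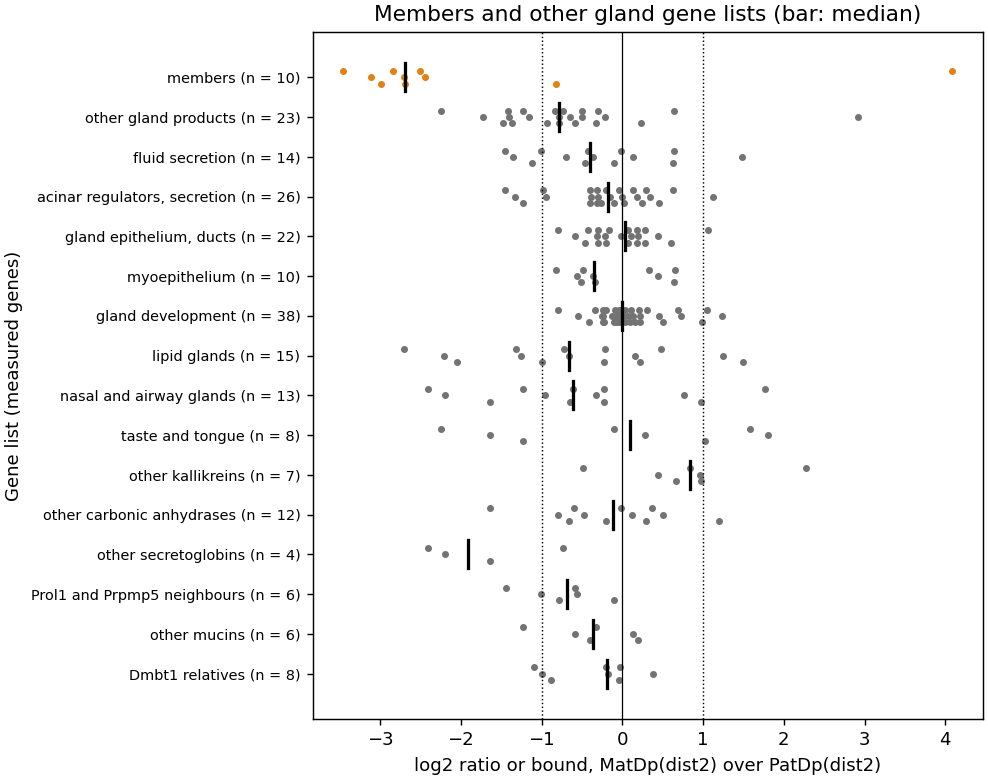
Log2 ratio or bound of MatDp(dist2) over PatDp(dist2) for each measured gene of the members and of 15 other lists, with a bar at each median and 2-fold differences dotted. The members have a median of -2.69, other gland products -0.78, gland epithelium 0.03, other secretoglobins -1.92 and other kallikreins 0.84.

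Relatives of the members did not all follow them. The secretoglobins did in direction: all 4 measured genes besides Scgb2b27 were brighter in PatDp(dist2). Scgb3a2 had 768.5 in MatDp(dist2) and 4061 in PatDp(dist2), 5.28-fold higher in PatDp(dist2). Scgb3a1 had 519.6 in MatDp(dist2) and 2377 in PatDp(dist2), 4.57-fold higher there. Scgb1a1, the club cell secretory protein, was 3.11-fold higher in PatDp(dist2). These 3 are products of nasal and airway epithelium. Scgb1b27, another secretoglobin of the androgen-binding protein family, had a bound of 1.66-fold with 107 in MatDp(dist2) and 311 in PatDp(dist2).

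Most measured kallikreins took the opposite direction to Klk1. Of 7 measured genes, 6 were brighter in MatDp(dist2), under each of the 4 scalings tried, and 1 of them passed 2-fold. With the floor at the 30th percentile 3 were at least 2-fold higher for MatDp(dist2) and 2 for PatDp(dist2). At the 70th percentile 0 passed 2-fold in either direction. The other 12 of 19 kallikreins on the arrays, many of them copies of Klk1, were below the floor in both heads. Klk7, a protease that sheds the outer layer of skin, had 908 in MatDp(dist2) and 59.8, below the floor, in PatDp(dist2), at least 4.86-fold higher in MatDp(dist2). Klk5, the skin protease that acts with it, was at least 1.95-fold higher in MatDp(dist2), Klk8 1.96-fold, Klk13 1.79-fold, Klk11 1.58-fold and Klk10 at least 1.35-fold. Klk1b11, one of the salivary copies of Klk1, was below the floor in MatDp(dist2), at 124.5, and had 263 in PatDp(dist2), a bound of 1.40-fold. It was the one of the 7 with the direction of Klk1.

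Of 12 measured carbonic anhydrases other than Car6, 1 was at least 2-fold higher in MatDp(dist2) and 1 in PatDp(dist2). Car4, a membrane-bound form, had 242 in MatDp(dist2) and 755.5 in PatDp(dist2), 3.12-fold higher in PatDp(dist2). Car11, an inactive relative made in brain, was 2.30-fold higher in MatDp(dist2), but under 2-fold with median centring. Car7 (1.41-fold), Car10 (1.29-fold), Car8 (1.23-fold) and Car12 (1.08-fold) were brighter in MatDp(dist2), and Car14 (1.74-fold), the muscle form Car3 (1.58-fold), Car13 (at least 1.51-fold), Car9 (1.39-fold) and Car2 (1.15-fold) in PatDp(dist2). In all 5 of the 12 were brighter in MatDp(dist2), against 4 with each of the 3 other scalings. Car3 has 3 other probe sets, which were 1.69-fold, 2.08-fold and 2.87-fold higher in PatDp(dist2). Car5b had 77.3 in MatDp(dist2) and 189.7 in PatDp(dist2), just over the floor, which leaves a bound of 1.01-fold.

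Neighbours of Prol1 on Chr 5, a cluster of casein, enamel and salivary genes, were measured in 6 cases, each brighter in PatDp(dist2). Ambn, an enamel matrix gene, was 2.71-fold higher and Odam, made by enamel organ cells, 2.00-fold. Smr2, a salivary gene, had 3971 in MatDp(dist2) and 6810.4 in PatDp(dist2), 1.71-fold higher in PatDp(dist2). Enam, another enamel gene, had 207 in MatDp(dist2) and 310.5 in PatDp(dist2). Amtn was 1.47-fold and Csn3, a casein, 1.08-fold higher in PatDp(dist2). Of 6 measured mucins, Muc5b alone passed 2-fold. Muc15 (214 and 166 for MatDp(dist2) and PatDp(dist2)) and Muc20 (244 and 223 in the same order) were brighter in MatDp(dist2), but Muc20 changed direction with each of the 3 other scalings. Emcn, a sialomucin of blood vessels, had 521 for MatDp(dist2) and 783 for PatDp(dist2), and Cd164 (1.31-fold) and Muc16 (at least 1.25-fold) were also brighter in PatDp(dist2). Of 8 measured relatives of Dmbt1, Cd163, a scavenger receptor of macrophages, was 2.14-fold higher in PatDp(dist2), followed by Lgals3bp (1.99-fold) and Ssc5d (1.84-fold). Ssc4d was 1.30-fold higher in MatDp(dist2). The 1 call in PatDp(dist2) became 3 with median centring, 2 with quantile normalization or loess, and 0 with an offset of 100 or a floor at the 70th percentile. The Dcpp relative Zg16 was below the floor in both heads.

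Secretory tissues near the glands were split. Of 15 measured genes of lipid glands, such as the Harderian gland of the orbit and the sebaceous glands, 2 were at least 2-fold higher in MatDp(dist2) and 6 in PatDp(dist2). The desaturase Scd1 (1106 in MatDp(dist2) and 7217 in PatDp(dist2)), the fat regulator Pparg (154 and 863 in the same order) and the lipid droplet gene Cidea (2677 and 11022) were higher in PatDp(dist2), and all are also genes of fat tissue. The fold of Scd1 was 6.53 on this probe set and 2.15 on its other one. Pparg was below the floor in MatDp(dist2), which leaves a bound of 4.62-fold. The elongase Elovl4, on Chr 9, was 2.81-fold higher in MatDp(dist2). Of 13 measured nasal and airway genes, 1 was at least 2-fold higher in MatDp(dist2), Bpifb9b on Chr 2 (3179 for MatDp(dist2) and 936 for PatDp(dist2)), and 4 in PatDp(dist2), the secretoglobins and Muc5b given above. Of 8 measured genes of taste buds and tongue, 3 passed 2-fold in each direction. Besides Lipf and Car4 the proton channel Otop1 was at least 2.35-fold higher in PatDp(dist2). The mucosal keratins Krt13 (4420.2 in MatDp(dist2), with 1260.4 in PatDp(dist2)) and Krt4 (7551 and 3721 in the same order) and the papilla keratin Krt36 (559 and 94.5) were higher in MatDp(dist2). Krt4 was 2.03-fold higher on this probe set, under 2-fold with median centring, and 3.37-fold higher on its other one. Krt36 was below the floor in PatDp(dist2), which leaves a bound of 2.99-fold. Over all lists, which overlap, 201 genes besides the members were measured, 14 at least 2-fold higher in MatDp(dist2) and 29 in PatDp(dist2). Among all 12483 measured genes the calls were 553 (4.43%) and 433 (3.47%) in the same order.

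**Figure D4:**
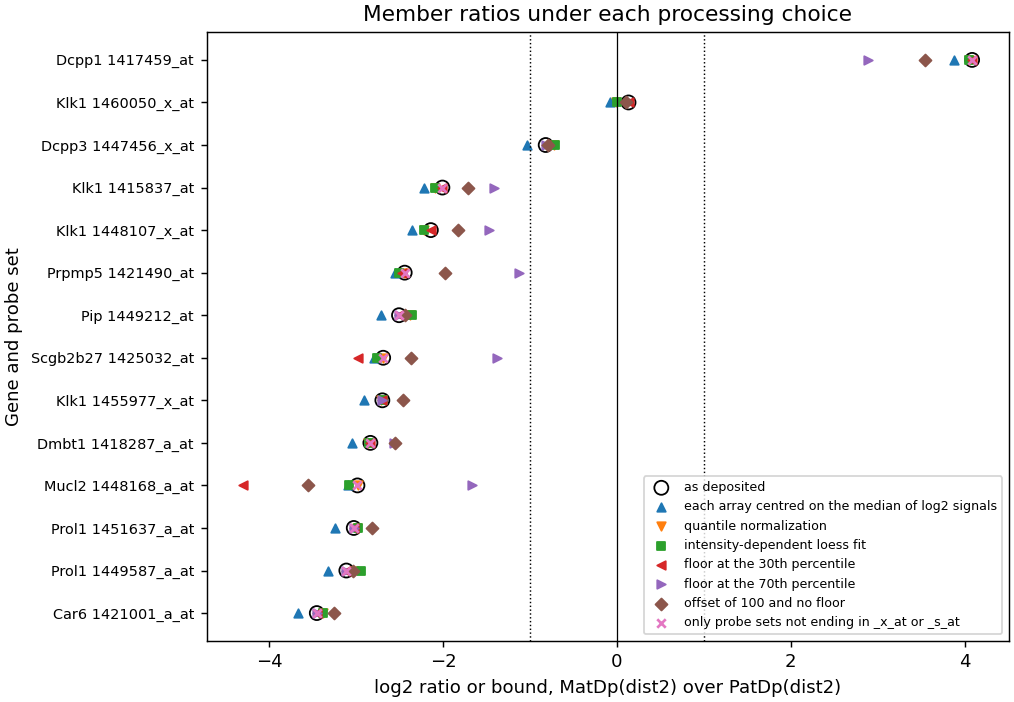
Log2 ratio or bound of MatDp(dist2) over PatDp(dist2) for each measured probe set of the members (rows) under the deposited scaling (open circles) and 7 other processing choices. Dcpp1 stays between 2.89 and 4.09 and Car6 between -3.67 and -3.25, while Mucl2, below the floor in MatDp(dist2), moves between -4.30 and -1.67.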

How the data were processed

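The data are 2 arrays of total RNA from whole newborn heads, 1 per genotype, grouped by the sample titles. The deposited values are signal intensities on a linear scale, for which MAS5 and GCOS are named in the submitters' processing notes. After trimming 2% of probe sets at each end, both arrays averaged 500.002, a common trimmed mean in the authors' values. Depth has no meaning for arrays, and their number limits the precision.

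Of 45101 probe sets, 64 controls were left out. The platform annotation gave 34945 of the rest 1 symbol, 932 several and 9160 none listed. Symbols were updated by gene ID through RefSeq genes of GRCm38.p6 (34741 found). Each gene's brightest probe set, by log2 signal averaged over the arrays, stood for it in counts over 18193 genes, and 12483 genes with at least 1 head at or above the floor were measured. A call is a ratio or bound of at least 2-fold. Because each group has 1 sample, no test was made.

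The members and the 16 other lists were chosen with earlier results of these data known. Members are taken out of the other lists, and 1 list, of Dcpp relatives, had no measured gene. Of each list the text names the 4 measured genes with the largest ratio, all genes where under 6 were measured, and all measured genes of the families of Klk, Car, Dcpp, secretoglobin and proline-rich protein genes. Others (Lpo, Amy1, Slurp1, Aqp5, Krt8, Cdh1, Muc15, Muc20, Amtn, Csn3, Krt4, Otop1, the below-floor markers and the sex-linked genes) were named after their values were seen. So were Lcn11, Wfdc12 and Bpifa1. Alternatives were 3 scalings, 2 floors, an offset, the mean over probe sets, a 3-fold threshold and, chosen after seeing the data, leaving out probe sets ending in _x_at or _s_at. Calls were tested on simulated data with large folds planted in bright probe sets. Folds near the 2-fold threshold, signals near the floor and false calls were not part of that simulation. Promoter windows were aligned with Biopython 1.88 under Python 3.11.15. A planned comparison of Dcpp proteins was not made, because no protein sequences were at hand, and the promoter comparison, added later, took its place.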

Additional observations from a re-analysis of the deposited data

How the results depend on the processing

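The 1 member higher in MatDp(dist2) and the 8 higher in PatDp(dist2) gave these counts under each of the 9 alternatives, apart from median centring, where Dcpp3 joined the 8 with a log2 ratio of -1.03 and made 9. The median log2 ratio of the members was -2.09 when the floor was the 70th percentile, and lay between -2.86 and -2.45 otherwise. That floor, at a signal of 465, turned more member values into bounds, so Dcpp1 became 2.89 and Prpmp5 -1.13. In the other lists together, the 14 genes higher in MatDp(dist2) became 9 with median centring, 7 with the higher floor and 4 at a 3-fold threshold, and the 29 higher in PatDp(dist2) became 17 with the higher floor and 9 at 3-fold. Of these list calls, 32.6% were higher in MatDp(dist2), against 18.8% with median centring, which moved the median log2 ratio of all genes to -0.19. Over all genes, 553 calls higher in MatDp(dist2) and 433 higher in PatDp(dist2) became 345 and 763 with median centring, 833 and 552 with a floor at the 30th percentile, 266 and 315 with the higher floor, and 146 and 100 at 3-fold. Of 93 single probe set values under the alternatives 8 moved by over 1.5-fold or across 2-fold and 0 called values changed sign. The mean over probe sets and the 3-fold threshold give no separate value for a probe set. No paired analysis was possible because each genotype has 1 array. Of the 10 genes, 3 have only a bound because of low signals.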
